A study of Mus musculus with 12 samples.

Results

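The transcripts of 7 genes for RNA-binding proteins of the DAZ, Pumilio and CPEB families (Dazl, Boll, Pum2, Cpeb1, Cpeb2, Cpeb3 and Cpeb4) were followed in mouse round spermatids carrying 1 or 2 mutant alleles of Igf2bp3, the gene of an m6A reader. They were chosen by symbol among the 28668 symbols of the deposited table, and all 7 were found. The cells were sorted by flow cytometry under cycloheximide from testes of 8-week-old males on a C57BL/6 background. Control males were Igf2bp3+/- and knockout males Igf2bp3-/-, so that every control also carried 1 mutant allele, and the mutation is a germline Cas9 frameshift present in all cells of the animal. By the methods the knockout males used here were picked for impaired fertility, so they were not a random draw of that genotype. This selection and the genotype cannot be told apart in these libraries. RNA-seq measured the total poly(A) RNA of the sorted cells, and RNC-seq measured the poly(A) RNA found in sucrose gradient fractions with 4 or more ribosomes per mRNA. There were 3 libraries for every genotype in every assay, 4 groups and 12 libraries in all, and values are FPKM, a density of fragments per length of transcript and per size of library. By the methods the cells of each mouse gave 1 extract, part of which was taken for RNA-seq and the rest fractionated for RNC-seq. Total and polysomal libraries thus share animals, so that the 12 libraries are not 12 animals, and the sources do not say whether the same replicate number marks the same mouse. P-values within an assay measure the spread between animals and their library preparation together.

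These proteins bind short elements in the 3′ untranslated region (3′ UTR) of mRNAs and set how long the poly(A) tail is and how much of the mRNA is translated. DAZ proteins are germ cell proteins with an RNA recognition motif. DAZL serves from the formation of germ cells through meiosis and favours translation of its targets, and BOLL (Boule), the member conserved most widely among animals, is needed in male mice for spermatids to mature. Pumilio proteins bind the Pumilio response element through a ring of helical repeats and recruit the CCR4-NOT deadenylase complex, which shortens the poly(A) tail. CPEB proteins bind the cytoplasmic polyadenylation element (CPE) and can hold an mRNA with a short tail or lengthen the tail, depending on their partners and on phosphorylation. CPEB1 is needed in germ cells for meiosis, and CPEB2, CPEB3 and CPEB4 form a subgroup of more closely related proteins.

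All 7 genes are protein-coding. On GRCm38, with annotation from GENCODE M21, Dazl lies on the minus strand at chr17:50279395-50293636, Boll on the minus strand at chr1:55248658-55363469 and Pum2 on the plus strand at chr12:8674134-8752581. Cpeb1 lies on the minus strand at chr7:81347026-81455465 and Cpeb2 on the plus strand at chr5:43233170-43289724. Cpeb3 lies on the minus strand at chr19:37021291-37208601 and Cpeb4 on the plus strand at chr11:31872211-31935634. No other annotated transcript matched any of them at 95% identity over 50% of its length. Antisense genes share 1.75% of the exonic bases of Cpeb2 (Gm7854) and 1.56% of those of Cpeb3 (A330032B11Rik), and reads over those stretches are uncertain because it is not stated whether strand was used in quantification.

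Elements that the Pumilio and CPEB families read were searched in the members' own 3′ UTRs, because the proteins can act on each other's mRNAs. No element of the DAZ family was searched. The search used the longest annotated 3′ UTR of each gene, in the sense of the transcript only, and overlapping matches were each counted. Which 3′ UTR the spermatids use was not examined, so a match may be absent from their transcripts. The Pumilio response element was searched as TGTANATA, with N any base. Pum2 itself held 2 matches, Cpeb1, Cpeb2 and Cpeb3 held 1 each, and Dazl, Boll and Cpeb4 held 0. Of all 20815 genes with a 3′ UTR, 23.4% held a match. Among genes with a 3′ UTR within 20% of the same length the share was 43.2% for the length of Pum2, 24.8% for Cpeb1, 50.7% for Cpeb2 and 49.8% for Cpeb3. The 5 windows are shown with the element in capitals, since they are the places where Pumilio proteins could contact the transcripts of their own group.
Pum2, chr12:8750154-8750183, plus strand: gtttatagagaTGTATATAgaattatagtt
Pum2, chr12:8750407-8750436, plus strand: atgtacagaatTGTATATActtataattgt
Cpeb1, chr7:81347543-81347572, minus strand: tgagcagctgcTGTATATAgttttaaatgg
Cpeb2, chr5:43286403-43286432, plus strand: tgttttcagtgTGTACATAaactaaaaatt
Cpeb3, chr19:37022117-37022146, minus strand: cccttttgtttTGTAAATAaatgtgccccc

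The CPE was searched as TTTTAT or TTTTAAT, and every member held it. Cpeb2 had 24 matches in 3778 bases, against a median of 5 in the 1731 genes with a 3′ UTR of like length, and 3 pairs of neighbouring matches overlapped. Cpeb4 had 17 in 4102 bases (median 5 at like length), Pum2 had 8 in 2861 bases (median 3), Boll had 7 in 1786 bases (median 2), Dazl had 6 in 1854 bases (median 2), Cpeb3 had 6 in 3569 bases (median 4) and Cpeb1 had 4 in 1315 bases (median 1). Across all genes 57.2% held at least 1, and at the members' lengths between 68.6% and 94.3% did. The 3′ UTR of Boll comes from a transcript annotated with an incomplete start. The element nearest to the annotated end of the 3′ UTR, where a CPE usually acts together with the polyadenylation signal, is shown in capitals for the 4 genes whose polysomal level differed from the total level in Igf2bp3+/- cells and for Boll, which was not called. Its distance from the annotated end was 369 bases in Dazl, 709 in Boll, 153 in Cpeb2, 227 in Cpeb3 and 211 in Cpeb4. In Pum2, also not called, it was 939 bases, and in Cpeb1, for which loading was not tested, 242 bases. Windows of Pum2 and Cpeb1 are not shown. A link of this distance with the polysomal level was not tested. Whether a CPE acts at such distances was not tested.
Dazl, chr17:50279752-50279781, minus strand: aagtcaaaattcTTTTATgtcaccaagtca
Boll, chr1:55269553-55269582, minus strand: agaaatacctctTTTTATatttattagaag
Cpeb2, chr5:43289554-43289583, plus strand: taatttagtttaTTTTATtgttatcttcca
Cpeb3, chr19:37021506-37021535, minus strand: ggaataaattaaTTTTATgatgctaattct
Cpeb4, chr11:31935406-31935435, plus strand: gggtaattcattTTTTATtaaagtcatttt

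The sequence GGACT, the most common context of m6A and so of the mark that IGF2BP3 reads, was found 4 times in the 3′ UTR of Cpeb3. Cpeb1 held 2 matches, Dazl, Boll and Pum2 held 1 each, and Cpeb2 and Cpeb4 held 0. At the lengths of Cpeb2, Cpeb3 and Cpeb4, 95.4%, 94.4% and 96.8% of genes held at least 1 match, and the median was 3 matches at each length. The paper names GAACA and AAACC as m6A motifs in its IGF2BP3 peaks, and these were not searched. The Cpeb3 windows are shown, with GGACT in capitals, because Cpeb3 had the largest genotype difference on polysomes among the members. That difference did not pass the adjusted test, and a link between it and the matches was not tested. A match is a stretch of letters only, and methylation or binding at these places was not measured in these libraries.
Cpeb3, chr19:37023799-37023828, minus strand: gcctcagtgggtGGACTgcccgtggacagc
Cpeb3, chr19:37022202-37022231, minus strand: tgtgactggccaGGACTgtgaaagagctct
Cpeb3, chr19:37021567-37021596, minus strand: tgtttctgggagGGACTttcatatctggtc
Cpeb3, chr19:37021323-37021352, minus strand: gtaacgtgactgGGACTgtaacggacaatt

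The file gives no counts, so depth is unknown. A relative depth read from the smallest values was 1 in Igf2bp3-/- RNA-seq replicate 1 and 0.380 to 0.550 in the other libraries. The transcript of the mutated gene, Igf2bp3, was still present in Igf2bp3-/- cells, at 38.2, 38.6 and 33.4 FPKM in Igf2bp3+/- and 31.7, 32.5 and 31.4 in Igf2bp3-/- RNA-seq (log2 difference -0.20 ± 0.09, SE, limma adjusted p = 0.335), and at 40.1, 31.4 and 43.0 against 43.1, 40.6 and 43.1 in RNC-seq (0.16 ± 0.20, limma adjusted p = 0.906). A frameshift need not change the FPKM of its transcript, so these values do not check the genotype labels. The 8 round spermatid markers summed to 1158 to 1324 FPKM in Igf2bp3+/- and 1469 to 1663 in Igf2bp3-/- RNA-seq, with 8 of 8 differences above 0, and to 1541 to 1835 against 1882 to 2074 in RNC-seq, with 7 of 8 above 0, and 0 of 8 passed the test in either assay. Of the 7 elongating spermatid markers 5 had a difference below 0 in RNA-seq and 6 one above 0 in RNC-seq, and 0 passed. The 8 spermatocyte markers summed to 63.2 to 71.6 FPKM in Igf2bp3+/- and 71.1 to 86.1 in Igf2bp3-/- RNA-seq, with 6 of 8 differences above 0. In RNC-seq they summed to 73.1 to 128.7 against 72.1 to 103.4 FPKM, with 4 of 8 above 0, and 0 passed in either assay. The 7 spermatogonia markers summed to 7.41 to 10.4 FPKM in Igf2bp3+/- and 7.59 to 9.66 in Igf2bp3-/- RNA-seq, with 2 of 5 tested above 0. Summed markers of somatic cells were also higher in Igf2bp3-/- libraries: the 6 Leydig markers summed to 14.6 to 21.5 FPKM in Igf2bp3+/- and 46.3 to 52.8 FPKM in Igf2bp3-/- RNA-seq, with 3 of 6 called higher, and none of the 6 was at 0 in any group's mean. In RNC-seq the Leydig sums were 6.16 to 13.9 against 50.4 to 100.5 FPKM. Most of these sums came from Insl3, with Igf2bp3+/- and Igf2bp3-/- means of 14.9 and 39.3 FPKM in RNA-seq. Its RNC-seq means were 7.83 and 64.1 FPKM. All 6 Leydig markers had differences above 0 in RNA-seq, and in RNC-seq so had all but Lhcgr, which is left out. Its Igf2bp3+/- RNC-seq mean of 0.0137 FPKM lay under the filter, and it passed only through the Igf2bp3-/- libraries, with a mean of 0.234 FPKM. In RNA-seq the 6 Sertoli markers summed to 3.45 to 4.32 FPKM in Igf2bp3+/- and 7.13 to 7.95 in Igf2bp3-/-, most of it from Clu (means 3.12 and 6.69), with 3 of 4 tested markers above 0, 1 of them called, and Rhox5 lower at 0.203 and 0.130 FPKM. The 6 macrophage and blood markers summed to 4.29 to 4.92 against 8.38 to 8.81 FPKM, with 6 of 6 above 0 and 1 called. The largest of them was Hba-a1, with means of 2.39 and 4.21 FPKM. Beside these RNA-seq calls, 0.256% of all genes were called in either direction. The transcript CT010467.1 took 15.9% to 19.4% of the summed FPKM of Igf2bp3+/- RNC-seq libraries and 8.14% to 14.6% of the Igf2bp3-/- ones.

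The members spanned a wide range of abundance, and 1 gene led each of the DAZ and CPEB families. In RNA-seq over 6 libraries the mean FPKM was 67.2 ± 5.04 (SD) for Boll, 35.2 ± 2.19 for Cpeb3, 12.4 ± 1.06 for Cpeb2 and 9.00 ± 1.89 for Cpeb4. It was 2.42 ± 0.326 for Dazl, 1.93 ± 0.230 for Pum2 and 0.126 ± 0.0329 for Cpeb1. Boll stood above 92.7% of the 20352 genes with a mean FPKM over 0.1, Cpeb3 above 87.8% and Pum2 above 49.8%, whereas Cpeb1 stood above 4.17%. Boll made up 96.5% of the DAZ FPKM and Cpeb3 62.1% of the CPEB FPKM. Cpeb2 and Cpeb4 had overlapping ranges, with Cpeb2 the higher in 5 of 6 libraries, and so had Dazl and Pum2, with Dazl the higher in 6 of 6. The ranges of all other neighbours in this order were apart.

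On polysomes the order was Boll at 69.5 ± 7.93 FPKM (SD, n = 6), Cpeb3 at 18.5 ± 7.83, Cpeb2 at 8.57 ± 1.50, Cpeb4 at 7.01 ± 0.739, Pum2 at 1.62 ± 0.170, Dazl at 1.47 ± 0.221 and Cpeb1 at 0.0540 ± 0.0499. Cpeb3 overlapped Cpeb2 here, which it did not in RNA-seq, although it was the higher in 6 of 6 libraries. Cpeb2 also overlapped Cpeb4, and Pum2 overlapped Dazl. In the plot of FPKM by library, Boll stays level across the groups while Dazl, Cpeb2 and Cpeb3 sit lower in RNC-seq.

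**Figure D1:**
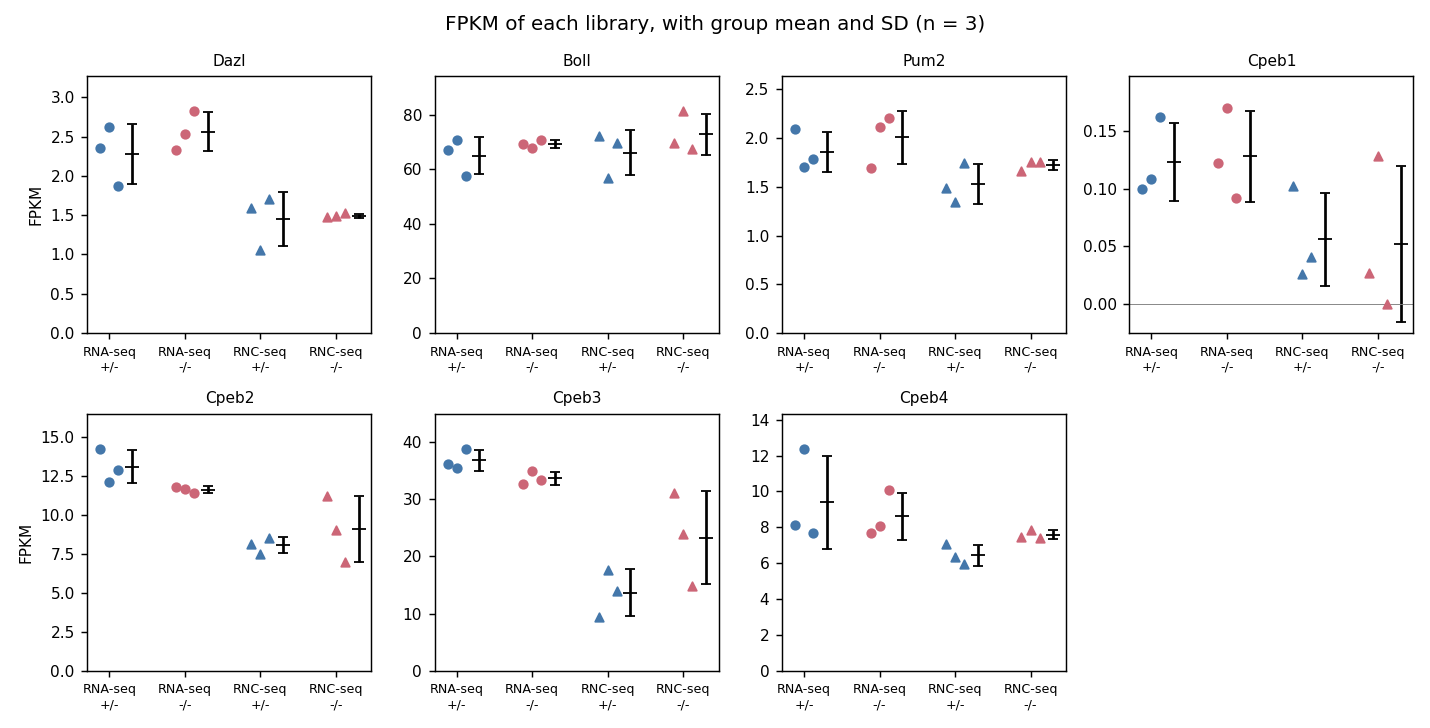
FPKM (linear axis, a separate scale for each gene) of every library of Dazl, Boll, Pum2 and the CPEB genes, by assay (circles RNA-seq, triangles RNC-seq) and genotype (blue Igf2bp3+/-, red Igf2bp3-/-), with the mean and SD of the 3 libraries in black. Cpeb3 runs from 32.7 to 38.9 FPKM in RNA-seq and from 9.44 to 31.1 FPKM in RNC-seq, whereas Boll runs from 57.4 to 70.9 and from 56.7 to 81.4 FPKM.

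Among the DAZ genes, Boll did not differ between genotypes beyond the spread in either assay. Its RNA-seq FPKM was 67.0, 70.6 and 57.4 in Igf2bp3+/- and 69.4, 67.9 and 70.9 in Igf2bp3-/- libraries. On polysomes it was 72.0, 56.7 and 69.6 against 69.6, 81.4 and 67.5. The groups overlapped in both assays, with replicate 3 low in Igf2bp3+/- RNA-seq and replicate 2 low in Igf2bp3+/- RNC-seq. The log2 difference of Igf2bp3-/- from Igf2bp3+/- was 0.10 ± 0.10 (SE) in RNA-seq (limma, Benjamini-Hochberg adjusted p = 0.649) and 0.14 ± 0.20 in RNC-seq (limma adjusted p = 0.914). The 95% interval ran from -0.12 to 0.32 in RNA-seq and from -0.29 to 0.57 in RNC-seq.

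Dazl, the meiotic regulator, was present at low levels. Its RNA-seq FPKM was 2.35, 2.62 and 1.87 in Igf2bp3+/- and 2.33, 2.53 and 2.83 in Igf2bp3-/- libraries. On polysomes the Igf2bp3+/- libraries gave 1.59, 1.05 and 1.70 and the Igf2bp3-/- libraries 1.48, 1.49 and 1.53. Genotypes overlapped in both assays, while every RNC-seq library lay below every RNA-seq library. The log2 genotype difference was 0.17 ± 0.17 (SE) in RNA-seq and 0.07 ± 0.28 in RNC-seq, with limma adjusted p of 0.655 and 0.976. In RNC-seq its sign turned to -0.05 when libraries were centred on their medians.

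Pum2, the Pumilio member known to bind DAZL, was measured at 2.09, 1.70 and 1.78 FPKM in Igf2bp3+/- and 1.70, 2.11 and 2.21 in Igf2bp3-/- RNA-seq. The polysomal values were 1.49, 1.35 and 1.75 FPKM in Igf2bp3+/- and 1.67, 1.75 and 1.75 in Igf2bp3-/- libraries. The genotypes overlapped in both assays, and the log2 differences were 0.10 ± 0.17 (SE, limma adjusted p = 0.804) and 0.17 ± 0.26 (limma adjusted p = 0.925).

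Cpeb1, the meiotic CPEB, was near the lower end of detection. Its RNA-seq FPKM was 0.0997, 0.108 and 0.162 in Igf2bp3+/- and 0.122, 0.170 and 0.0917 in Igf2bp3-/- libraries. The polysomal values were 0.102, 0.0258 and 0.0405 FPKM in Igf2bp3+/- and 0.0272 and 0.128 in Igf2bp3-/- libraries, and the gene was listed at 0 in the other Igf2bp3-/- library. From the smallest values of each library these correspond to about 6.10 to 18.6 fragments in RNA-seq and at most 10.3 in RNC-seq. These numbers are rough, and at this depth only a large genotype difference could have been told from 0. The RNA-seq difference of 0.03 ± 0.33 on the log2 scale (SE, limma adjusted p = 0.978) has a 95% interval from -0.72 to 0.78, and in RNC-seq the mean was under the filter of 0.1 FPKM and no test was made.

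Cpeb2 was measured at 14.3, 12.1 and 12.9 FPKM in Igf2bp3+/- and 11.8, 11.7 and 11.4 in Igf2bp3-/- RNA-seq. On polysomes the Igf2bp3+/- libraries gave 8.14, 7.50 and 8.52 and the Igf2bp3-/- libraries 11.2, 9.05 and 6.99. The RNA-seq groups did not overlap and those of RNC-seq did. The log2 difference was -0.17 ± 0.10 (SE, limma adjusted p = 0.456) in RNA-seq and 0.15 ± 0.24 (limma adjusted p = 0.929) in RNC-seq. Without Igf2bp3-/- RNC-seq replicate 1 the latter was -0.0145.

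Cpeb3, the most abundant CPEB, had the largest genotype difference in RNC-seq among the members, and it did not pass the adjusted test. Its RNA-seq FPKM was 36.2, 35.4 and 38.9 in Igf2bp3+/- and 32.7, 34.9 and 33.4 in Igf2bp3-/- libraries. On polysomes it was 9.44, 17.5 and 14.0 in Igf2bp3+/- and 31.1, 23.9 and 14.8 in Igf2bp3-/- libraries. The Igf2bp3-/- RNA-seq libraries lay just below all those of Igf2bp3+/-, whereas on polysomes 2 of 3 Igf2bp3-/- libraries lay above every Igf2bp3+/- library and the third lay inside their range. In RNC-seq the log2 difference was 0.75 ± 0.31 (SE), with a 95% interval from 0.08 to 1.41, an unadjusted limma p of 0.0317 and an adjusted p of 0.756, so it did not pass the limit over the 19051 genes tested. An unadjusted p under 0.05 was reached by 6.48% of those genes. In RNA-seq the difference was -0.13 ± 0.09 (SE, limma adjusted p = 0.491). Leaving out 1 RNC-seq library at a time gave 0.50 to 1.04 in RNC-seq, the lowest without replicate 1 of either genotype and the highest without Igf2bp3-/- replicate 3.

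Cpeb4 was measured at 8.12, 12.4 and 7.70 FPKM in Igf2bp3+/- and 7.66, 8.06 and 10.1 in Igf2bp3-/- RNA-seq. On polysomes the Igf2bp3+/- libraries gave 7.08, 6.32 and 5.93 and the Igf2bp3-/- libraries 7.46, 7.87 and 7.39. Replicate 2 stood high in Igf2bp3+/- RNA-seq, and on polysomes the Igf2bp3-/- libraries lay above all those of Igf2bp3+/-. The log2 difference was -0.10 ± 0.19 (SE, limma adjusted p = 0.827) in RNA-seq, where it turned to 0.11 without that replicate. It was 0.23 ± 0.21 (limma adjusted p = 0.863) in RNC-seq.

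Counted together, 0 of 7 members passed the limit of 0.05 in RNA-seq, where 0.256% of 20352 genes did, and 0 of 7 had an unadjusted limma p under 0.05, which 15.7% of genes had. The genotypes did not overlap for 2 of 7 members in RNA-seq, Cpeb2 and Cpeb3, both lower in Igf2bp3-/-, against 22.7% of all genes in either direction and 8.68% in the lower direction. In RNC-seq 0 of the 6 members tested passed, against 0.115% of 19051 genes, and Cpeb3 alone had an unadjusted limma p under 0.05. Cpeb4 was the 1 member of 6 whose genotypes did not overlap in RNC-seq, against 11.3% of all genes. The median log2 difference of the members was 0.03 in RNA-seq, beside 0.05 over all genes tested, and 0.16 in RNC-seq, beside 0.13 over all genes. Centring each library on its median took the RNC-seq median of all genes down by 0.119 on the log2 scale, so that RNC-seq differences of this size depend on the scaling. On that scale the RNC-seq difference of Cpeb3 was 0.63, and it was also 0.63 after CT010467.1 was removed and libraries were rescaled. The part of the marker shifts, somatic and germ cell, in these values was not tested, and in such bulk samples fewer cells of a type and less RNA per cell cannot be told apart.

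Cpeb3 was the largest part of the CPEB transcripts in every library. It held 59.0% to 65.2% of the summed CPEB FPKM in the 6 RNA-seq libraries. In RNC-seq it held 38.1%, 55.9% and 49.1% in Igf2bp3+/- and 62.4%, 58.4% and 50.7% in Igf2bp3-/- libraries. The polysomal shares of the genotypes overlapped, and Igf2bp3+/- RNC-seq replicate 1 had the lowest share of all 12 libraries. The summed CPEB FPKM was 52.3 to 60.0 in RNA-seq, and in RNC-seq it was 24.8 to 31.4 in Igf2bp3+/- and 29.2 to 49.9 in Igf2bp3-/- libraries.

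**Figure D2:**
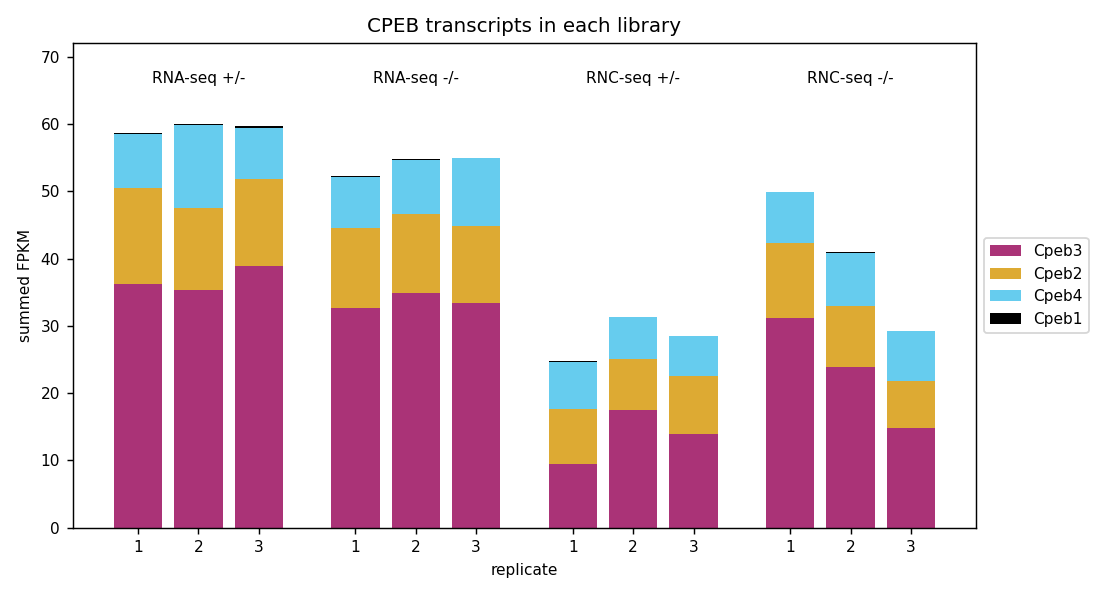
Stacked bars of the FPKM of Cpeb3, Cpeb2, Cpeb4 and Cpeb1 in each of the 12 libraries (y axis, summed FPKM from 0; x axis, replicate number within each assay and genotype). The Cpeb3 section is the tallest in every library, and the bars are shortest in Igf2bp3+/- RNC-seq at 24.8 to 31.4 FPKM.

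Whether the transcripts lay on polysomes to the same degree as total RNA was read within each genotype as the log2 difference of RNC-seq from RNA-seq. FPKM is relative within each library, so that a negative value means a smaller place among polysomal than among total mRNAs. In Igf2bp3+/- spermatids 4 of the 6 members tested were lower on polysomes, against 25.2% of 18414 genes called lower. Cpeb3 fell from a mean of 36.8 to 13.7 FPKM, a log2 difference of -1.47 ± 0.25 (SE, limma adjusted p = 0.000418), and Cpeb2 from 13.1 to 8.05 FPKM, a log2 difference of -0.69 ± 0.17 (limma adjusted p = 0.00482). Dazl fell from 2.28 to 1.45 FPKM (-0.63 ± 0.21, limma adjusted p = 0.0273) and Cpeb4 from 9.40 to 6.44 FPKM (-0.51 ± 0.19, limma adjusted p = 0.0429). Pum2 did not pass, at -0.27 ± 0.19 (limma adjusted p = 0.271), and Boll was at 0.02 ± 0.14 (limma adjusted p = 0.915).

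In Igf2bp3-/- spermatids 1 of the 6 members was called lower, against 14.0% of genes. Dazl fell from 2.56 to 1.50 FPKM, a log2 difference of -0.73 ± 0.21 (SE, limma adjusted p = 0.0219). Cpeb3 was at 33.7 and 23.3 FPKM, -0.59 ± 0.25 (limma adjusted p = 0.0931), and Cpeb2 at 11.6 and 9.10 FPKM, -0.38 ± 0.17 (limma adjusted p = 0.118). The differences were -0.17 ± 0.19 for Cpeb4, -0.20 ± 0.19 for Pum2 and 0.07 ± 0.14 for Boll, with limma adjusted p of 0.544, 0.470 and 0.768.

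**Figure D3:**
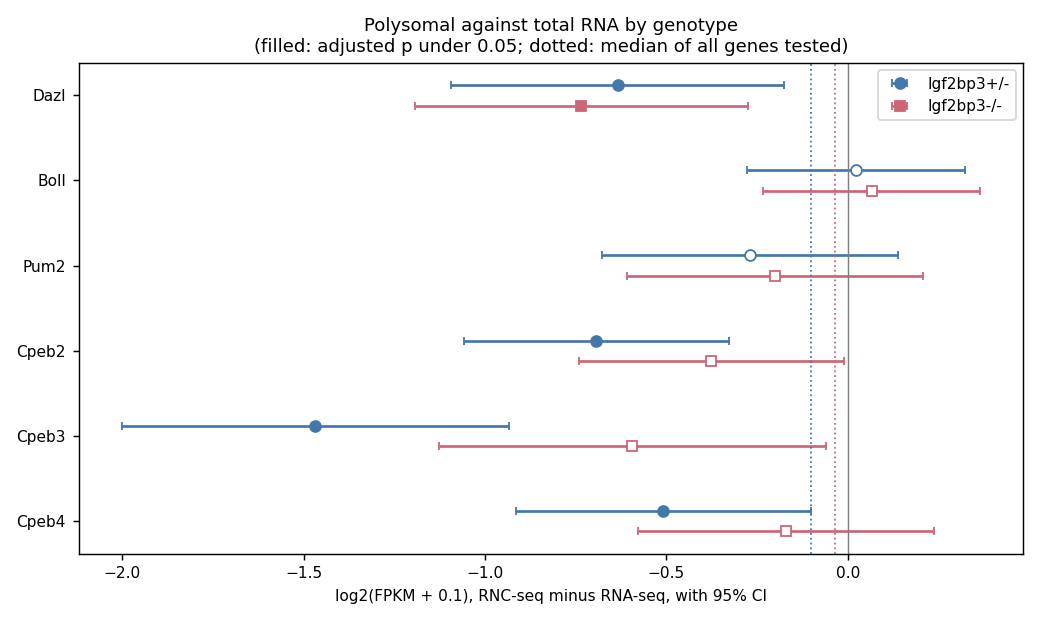
Log2 difference of RNC-seq from RNA-seq, on the log2(FPKM + 0.1) scale (x axis), with its 95% interval for each gene (y axis) in Igf2bp3+/- (blue circles) and Igf2bp3-/- (red squares) spermatids. Filled symbols have an adjusted p under 0.05, dotted lines mark the medians of all genes (-0.10 and -0.04), and Cpeb3 lies at -1.47 in Igf2bp3+/- and -0.59 in Igf2bp3-/-, while Boll lies near 0 in both.

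The calls for Cpeb2 and Cpeb3 in Igf2bp3+/- held under every alternative run, from -0.92 to -0.52 for Cpeb2 and from -1.69 to -1.23 for Cpeb3. Those for Dazl and Cpeb4 were lost with the replicate number as a block (limma adjusted p = 0.0563 and 0.0574), with libraries centred on their medians (0.0526 and 0.128) and with quantile normalization (0.0597 and 0.0636), and that for Cpeb4 also with no filter on low FPKM (0.0532). That for Dazl in Igf2bp3+/- was also lost without Igf2bp3+/- RNA-seq replicate 1 (limma adjusted p = 0.0747), without RNA-seq replicate 2 (0.108) or without RNC-seq replicate 2 (0.101) of that genotype. That for Cpeb4 was also lost on leaving out any of 6 single libraries, with limma adjusted p from 0.0534 to 0.226, the highest without Igf2bp3+/- RNA-seq replicate 2. Those 6 were Igf2bp3+/- RNA-seq replicate 2, all 3 Igf2bp3+/- RNC-seq libraries and Igf2bp3-/- RNA-seq replicates 1 and 2. In Igf2bp3-/-, Dazl was lost without RNA-seq replicate 2 (limma adjusted p = 0.0650) or 3 (0.0770), and without RNC-seq replicate 1 Cpeb3 (-0.84, limma adjusted p = 0.0312) and Cpeb2 (-0.54, limma adjusted p = 0.0321) passed. The split of all genes called in Igf2bp3+/- was 3420 higher and 4639 lower as deposited, 4725 and 3621 after centring on medians, and 2566 and 6182 after removal of CT010467.1. In Igf2bp3-/- it was 2303 and 2583 as deposited and 1503 and 4154 after that removal. These scalings moved the median of all genes in Igf2bp3+/- by 0.169 and -0.198 on the log2 scale, and Boll, whose sign they could turn, was at -0.20 after the removal.

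Translational efficiency (TE), the mean RNC-seq FPKM over the mean RNA-seq FPKM, was 0.371 for Cpeb3 in Igf2bp3+/- and 0.691 in Igf2bp3-/- cells. This ratio of 1.86 in favour of Igf2bp3-/- lies past 1.5-fold, as it did for 18.6% of 18374 genes in that direction. In rank, Cpeb3 stood above 10.4% of 18397 genes in Igf2bp3+/- and above 23.6% in Igf2bp3-/-. TE was 0.615 and 0.782 for Cpeb2, 0.685 and 0.881 for Cpeb4, 0.821 and 0.858 for Pum2, 1.02 and 1.05 for Boll and 0.635 and 0.584 for Dazl, in Igf2bp3+/- and Igf2bp3-/- in that order. Beside these stand medians of 0.936 and 0.993 over all genes. Of these 6 genes all but Boll lay below the median gene in both genotypes, and Cpeb1, under the filter, had no TE.

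The test of the TE difference between genotypes, the interaction of genotype and assay over 12 libraries, passed for 0 of the 6 members tested, against 0.00543% of 18414 genes. For Cpeb3 the log2 difference was 0.87 ± 0.35 (SE), with a 95% interval from 0.12 to 1.63, an unadjusted limma p of 0.0264 and an adjusted p of 0.686. An unadjusted p under 0.05 was reached by 7.13% of genes and, of the members, by Cpeb3. Across the alternatives the Cpeb3 difference stayed between 0.63 and 1.17, with limma adjusted p from 0.141 to 0.941. The highest value came without Igf2bp3-/- RNC-seq replicate 3 and the lowest without RNC-seq replicate 1 of either genotype. The other members had log2 differences of 0.34 ± 0.27 (Cpeb4), 0.32 ± 0.24 (Cpeb2), 0.07 ± 0.27 (Pum2), 0.04 ± 0.20 (Boll) and -0.10 ± 0.30 (Dazl), with limma adjusted p from 0.762 to 0.961. The loading calls of Cpeb2, Cpeb3 and Cpeb4 in Igf2bp3+/- and not in Igf2bp3-/- were therefore not shown to differ between genotypes.

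**Figure D4:**
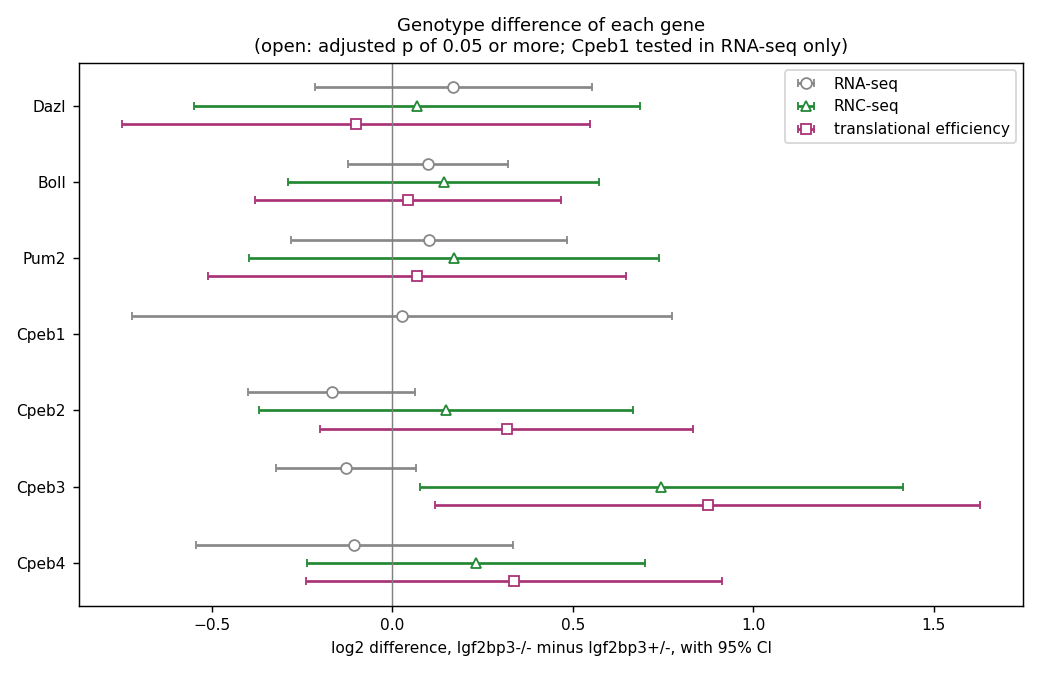
Log2 difference of Igf2bp3-/- from Igf2bp3+/- (x axis) with its 95% interval for each gene (y axis) in RNA-seq (grey circles), RNC-seq (green triangles) and translational efficiency (purple squares). All symbols are open because no adjusted p was under 0.05, and the intervals of Cpeb3 in RNC-seq (0.08 to 1.41) and in translational efficiency (0.12 to 1.63) are the ones that do not include 0.

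The machinery with which these proteins work was described from 4 lists. The CCR4-NOT list held 12 subunits and associates, of which 11 passed the filter in each comparison. In no genotype comparison did any of them pass the limit. Cnot3, a scaffold subunit, had the smallest p on polysomes, with a mean of 0.886 FPKM in Igf2bp3+/- and 2.20 in Igf2bp3-/- RNC-seq and a log2 difference of 1.16 ± 0.32 (SE, limma adjusted p = 0.593). In RNA-seq it was Cnot8, a catalytic deadenylase subunit, with 0.667 and 1.07 FPKM and a log2 difference of 0.62 ± 0.27 (limma adjusted p = 0.315). The median of the list was 0.25 in RNC-seq, beside 0.13 for all genes. On polysomes against total RNA, 7 of 11 were called lower in Igf2bp3+/-, where 25.2% of all genes were, with a median of -0.75 beside -0.10 for all genes. In Igf2bp3-/- 4 of 11 were called lower (Cnot1, Cnot2, Cnot4 and Cnot10), against 14.0% of all genes. Cnot1, the scaffold of the complex, had the largest of these differences, at -1.83 in Igf2bp3+/- and -1.32 in Igf2bp3-/- (limma adjusted p = 6.72e-05 and 0.00152).

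The cytoplasmic polyadenylation list held 10 genes, all tested, and 0 passed in a genotype comparison. Papd4 (also Tent2), the poly(A) polymerase that lengthens tails with CPEB, was at 2.36 FPKM in Igf2bp3+/- and 1.62 in Igf2bp3-/- RNA-seq, a log2 difference of -0.51 ± 0.15 (SE, limma unadjusted p = 0.00844, adjusted p = 0.201). Sympk, the symplekin scaffold, was at 4.89 and 8.23 FPKM in RNC-seq, a log2 difference of 0.68 ± 0.28 (limma adjusted p = 0.756), and had a TE difference of 0.92 ± 0.31 (limma adjusted p = 0.686). In Igf2bp3+/- 7 of 10 were called lower on polysomes and 1 higher, beside 25.2% and 18.6% of all genes. The higher gene was Aurka, a kinase that can phosphorylate CPEB1, at 188.1 FPKM in RNA-seq and 264.1 in RNC-seq (log2 difference 0.48, limma adjusted p = 0.0155). In Igf2bp3-/- 4 of 10 were called lower (Cpsf1, Cpsf2, Cpsf3 and Wdr33), beside 14.0% of all genes, all subunits of the factor that recognises and cuts at the polyadenylation signal, with Cpsf1 at -0.92 and Wdr33 at -1.03.

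Of 18 partner proteins of the DAZ, Pumilio and CPEB families 16 were matched in the table and 14 were tested. None passed in a genotype comparison. Tob1, an adaptor that joins CPEB3 to the deadenylase, was at 2.55 FPKM in Igf2bp3+/- and 5.53 in Igf2bp3-/- RNC-seq, a log2 difference of 0.93 ± 0.36 (SE, limma unadjusted p = 0.0255, adjusted p = 0.744), with a TE difference of 1.07 ± 0.44 (limma adjusted p = 0.686). The median was 0.24 in RNC-seq and 0.28 in TE, beside 0.13 and 0.06 for all genes. In Igf2bp3+/- 7 of 14 were called lower on polysomes and in Igf2bp3-/- 4 of 14 (Dzip1, Eif4enif1, Ddx6 and Pabpc1), against 25.2% and 14.0% of all genes, with Ddx6, an RNA helicase of repressed mRNAs, at -1.40 and -0.91 and Pabpc1, a poly(A)-binding protein, at -0.91 and -0.81.

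Of 6 mRNAs reported as targets of DAZL or CPEB1 in germ cells, all were tested and 0 passed in a genotype comparison. Tex19.1 had the smallest p on polysomes, but its mean of 0.0364 FPKM in Igf2bp3+/- RNC-seq lay under the filter and it passed only through the Igf2bp3-/- libraries, with a mean of 0.244 FPKM, so that no difference is given. Against total RNA, Sycp1, Ddx4, Tex14 and Sohlh2 were called lower on polysomes in Igf2bp3+/-. Tex19.1 is left out there for the same reason. In Igf2bp3-/- 3 of 6 were called lower (Sycp1, Ddx4 and Tex14). The shares of all genes called lower were 25.2% in Igf2bp3+/- and 14.0% in Igf2bp3-/-. Ddx4, a germ cell helicase, went from 261.2 to 102.7 FPKM in Igf2bp3+/- and from 278.0 to 106.7 FPKM in Igf2bp3-/- (log2 differences -1.37 and -1.39). Sycp3, of the synaptonemal complex, was the 1 gene with a higher polysomal mean in both genotypes, at 36.7 and 67.4 FPKM in Igf2bp3+/- and 39.8 and 46.7 in Igf2bp3-/- cells, and it passed in neither.

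Across the 12 libraries the members varied to different degrees together. Pearson's r of log2 values was 0.881 for Cpeb2 with Cpeb3, 0.783 for Dazl with Pum2 and -0.109 to 0.273 for Boll with the others. These values describe libraries that differ in depth, share animals between assays and fall into assays and genotypes. Among 11389 genes with a mean of at least 1 FPKM in each assay, the pair most like Cpeb3 was Zc3h18 (r = 0.992) and Sertad2 (0.985). The genes most like Cpeb2 were Gm6225 (0.979) and Chmp2b (0.971), and for Dazl they were Riok1 and Ccdc181 (both 0.968). For Boll they were Mak16 (0.922) and Ypel5 (0.894), for Pum2 Hmgcs1 (0.895) and Zfp346 (0.883), and for Cpeb4 Gas7 (0.919) and Ankrd10 (0.828).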

How the data were processed

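Sorted round spermatids of 3 Igf2bp3+/- and 3 Igf2bp3-/- replicates were measured by RNA-seq and RNC-seq. The deposited values are FPKM, in 1 table whose WT columns hold the Igf2bp3+/- libraries. By the methods and the submitters' processing notes, the authors used Trim Galore 0.6.6 for trimming, Hisat2 for alignment to GRCm38 and StringTie 2.1.7 for quantification, and the annotation release is not given in the sources used here. The labels name a directional kit and the methods a full-length protocol. Both describe poly(A) selection, which recovers polyadenylated RNA only. Of 28668 symbols, 25 had become dates and were left out (0.0995% of FPKM), and 27860 of the 28643 used matched GENCODE M21. FPKM holds no counts, so no count test or counting interval was made, and relative depth was read from the lowest values of single-transcript genes.

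log2(FPKM + 0.1) was fitted with limma 3.58.1 in R 4.3.3, with an intensity trend, over all genes with a mean FPKM above 0.1. Genotype was tested over the 6 libraries of each assay. The TE interaction and RNC-seq minus RNA-seq within each genotype were fitted over all 12, among genes above 0.1 in each assay. Tests were two-sided, adjusted by Benjamini-Hochberg over all genes, with a limit of 0.05. Differences are on the log2(FPKM + 0.1) scale, which understates changes of low genes. Scripts were tested on simulated data. 3′ UTRs came from GENCODE M21, and copies were sought with BLAST 2.17.0. The members, lists and tests were chosen with earlier results of these data known. All 7 members were named, and 1 other gene that the rule covered is not reported here. From each list the rule took the genes past the limit in a genotype comparison, otherwise up to 3 with the smallest p, and the genes named for polysome loading were chosen after their values were seen. For likeness it took the 2 genes with the highest Pearson r for members with a mean above 1 FPKM.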

Additional observations from a re-analysis of the deposited data

How the results depend on the processing

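The number of members called lower on polysomes depended on the setting. In Igf2bp3+/- it was 4 as reported and 2 with libraries centred on their medians, with quantile normalization and with the replicate block, where Cpeb2 and Cpeb3 remained, and it was 2 to 4 when 1 library was left out. Of all 18414 genes 4639 were called lower in Igf2bp3+/- as reported, 3621 with centred libraries, 4090 with quantile normalization and 4465 with the block. With 1 library left out, 3797 to 4861 of all genes were called lower in that genotype. Pum2, not called there as reported, ran from -0.487 to -0.0706 over all settings. Its limma adjusted p ran from 0.0477 to 0.774, so that it passed under an alternative setting. In Igf2bp3-/- the number of members called lower was 1 as reported, 3 after removal of CT010467.1 and rescaling, a setting chosen after seeing the data, and 0 to 3 when 1 library was left out. Beside these, 2583 of 18414 genes were called lower in Igf2bp3-/- as reported and 4154 of 18708 after that removal. With 1 library left out, 1688 to 3295 of all genes were. The member counts thus moved along with those of all genes. The count in the genotype comparisons stayed at 0 in RNA-seq, RNC-seq and translational efficiency under all settings run, the replicate block included. By the methods total and polysomal RNA came from the same extracts, but no source says that numbers match between assays. The correlation of the deviations of total and polysomal libraries with the same number ran from -0.105 to 0.262, and not every library correlated best with its own number, so the numbers were not taken as pairs. A fit that leaves out the pairing treats libraries of 1 animal as independent.

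Of the values for single genes, those near 0 changed sign. With quantile normalization Boll was at -0.0117 in the RNA-seq genotype difference, at -0.0415 for loading in Igf2bp3+/- and at -0.0249 in Igf2bp3-/-, Dazl at -0.0576 in RNC-seq and Pum2 at -0.0575 in translational efficiency. With centred libraries Dazl was at -0.0497 in RNC-seq, and Boll and Pum2 at -0.0861 and -0.0600 in translational efficiency. Without CT010467.1 the RNA-seq differences were -0.0229 for Boll, -0.0151 for Pum2 and -0.0448 for Cpeb1, the RNC-seq difference of Dazl was -0.0408, and the loading of Boll was -0.202 and -0.155. With 1 library left out, the RNA-seq difference ran from -0.102 to 0.147 for Cpeb1 and from -0.230 to 0.109 for Cpeb4, and the RNC-seq difference from -0.130 to 0.191 for Dazl and from -0.0145 to 0.324 for Cpeb2. In translational efficiency it ran from -0.299 to 0.0297 for Dazl, from -0.0631 to 0.130 for Boll and from -0.0407 to 0.164 for Pum2, and the loading of Boll from -0.0646 to 0.129 in Igf2bp3+/- and from -0.0166 to 0.118 in Igf2bp3-/-. The cause of these shifts was not tested. Of 523 values for single genes over all settings, 468 kept their direction and side of the limit, 32 changed sign, 18 no longer passed and 5 newly passed. Depth is unknown and limits Cpeb1 most.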
